A study of Mus musculus with 6 samples.

Results

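Testis makes its own thioredoxins, and the 10 genes described here are thiol redox genes of spermatids and some of their general counterparts. They include the spermatid thioredoxins Txndc2, Txndc8 and Nme8 and the thioredoxin reductases Txnrd1, Txnrd2 and Txnrd3. The others are the general thioredoxin Txn1, the peroxiredoxins Prdx4 and Prdx6, and the glutathione peroxidase Gpx4. The genes were taken by symbol, and all 10 were found among the 36652 gene rows of the expression table. The libraries came from whole testes of 8-week-old mice, 3 labelled Ccdc117ko, a knockout of the coiled-coil gene Ccdc117, and 3 labelled WT, wild type. The labels give neither the allele nor the strain, and they do not say that each library is a separate mouse, so the p-values measure the spread between these libraries, which may be technical.

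The 6 mRNA libraries held 35791616 to 43461692 reads in genes. Ccdc117 itself had 3478, 3772 and 3908 normalized counts in Ccdc117ko testes, against 3657, 3826 and 3931 in WT testes (log2 difference -0.03, limma adjusted p = 0.763). The groups overlapped, and a total per gene cannot check a genotype whose deleted exons are not known. None of the 14 round spermatid or 15 elongating spermatid markers was at 0 in all 6 libraries. A few reads are enough for that, so it does not show how much of a cell type was present.

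Thioredoxins are small proteins that reduce disulfide bonds with a pair of cysteines, and thioredoxin reductases recharge them with electrons from NADPH. Peroxiredoxins reduce peroxides with a reactive cysteine, and glutathione peroxidases do so with a selenocysteine or cysteine and glutathione. In developing sperm the same chemistry also forms disulfide bonds: protamines, the fibrous sheath of the tail and the mitochondrial capsule of the midpiece are cross-linked as sperm mature, and Gpx4 becomes a structural part of that capsule.

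The catalytic sites of the 10 genes are shown because they separate the members by chemistry. Each is coding sequence read from GENCODE M21 transcripts on GRCm38, 5′ to 3′, with the codons of the reactive cysteines (TGT or TGC) or selenocysteine (TGA) in capitals.
Txndc2: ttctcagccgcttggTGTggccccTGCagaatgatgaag
Txndc8: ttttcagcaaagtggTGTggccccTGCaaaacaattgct
Nme8: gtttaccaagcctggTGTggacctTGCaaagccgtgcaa
Txn1: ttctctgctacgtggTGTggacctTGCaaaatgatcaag
Txnrd1: atcctccagtctggcTGCTGAggt
Txnrd2: cctactgtgactggtTGCTGAggc
Txnrd3: attactcagaaaggcTGCTGAggc
Prdx4: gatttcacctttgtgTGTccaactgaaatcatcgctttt
Prdx6: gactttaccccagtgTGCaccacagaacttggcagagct
Gpx4: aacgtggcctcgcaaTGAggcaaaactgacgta

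The 4 thioredoxins share a tryptophan codon and a pair of cysteine codons that flank 2 others: TGG, then TGT or TGC, then any pair of codons, then TGT or TGC, searched in frame on the coding strand. That pattern stood in 151 of 22035 coding sequences, or 0.685%, so it is not particular to these genes. Txndc2 carries it at codons 477 and 480, near the end of a long repeat-bearing protein, whereas Txn1 carries it at codons 32 and 35. Txndc8 carries it at codons 58 and 61, and Nme8 at codons 39 and 42. All 3 reductases hold near their end a cysteine codon followed by TGA, at codons 497 and 498 in Txnrd1, 525 and 526 in Txnrd2 and 613 and 614 in Txnrd3. The end pattern, searched likewise as a glycine codon, TGT or TGC, TGA and a glycine codon, was found in 3 of 22035 coding sequences, 0.0136%, and these were the 3 reductases. Only a coding sequence annotated to read through an in-frame TGA could match. Most could not, so this share does not measure how particular the pattern is. In Gpx4 the selenocysteine codon is codon 73, in Prdx4 the peroxide-reacting cysteine is codon 127, and in Prdx6 it is codon 47. Codons are numbered in a principal transcript of each gene. Other transcripts can number them differently or lack the site, as some of Txnrd2 do.

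The sites of Txndc2 (chr17:65637729-65637767), Txndc8 (chr4:58007087-58007125), Nme8 (chr13:19696647-19696685), Txn1 (chr4:57951809-57951847) and Prdx6 (chr1:161247347-161247385) are read from the minus strand. Those of Txnrd1 (chr10:82896019-82896042), Txnrd2 (chr16:18477754-18477777), Txnrd3 (chr6:89674771-89674794) and Gpx4 (chr10:80054722-80054754) are read from the plus strand. The Prdx4 site spans a splice junction on the minus strand (chrX:155332439-155334842). All lie in coding exons.

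In testes of both genotypes the genes of this set spanned a wide range of levels. Per kilobase of the longest transcript, Gpx4 averaged 54897 ± 1136 normalized counts in Ccdc117ko testes and 50430 ± 1120 in WT testes (SD, n = 3 each), rank 24 among the tested genes in WT. Next came Txndc2 with 11670 ± 241 in Ccdc117ko testes and 11879 ± 258 in WT testes, and Txnrd3 with 6749 ± 177 in Ccdc117ko testes and 6871 ± 234 in WT testes. On this scale the testis-rich Txndc2 and Txnrd3 stood above their general relatives Txn1, Txnrd1 and Txnrd2.

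Txndc8 had 5684 ± 45.9 normalized counts per kilobase in Ccdc117ko testes and 4550 ± 153 in WT testes, just ahead of Prdx4 with 4696 ± 346 in Ccdc117ko testes and 4206 ± 80.8 in WT testes. The lowest were Txn1 with 463 ± 49.3 in Ccdc117ko testes and 494 ± 29.6 in WT testes, Txnrd1 with 331 ± 15.6 in Ccdc117ko testes and 372 ± 34.8 in WT testes, and Txnrd2 with 67.9 ± 4.35 in Ccdc117ko testes and 68.6 ± 4.93 in WT testes. Between these and Prdx4 lay Nme8 with 2797 ± 113 in Ccdc117ko testes and 3088 ± 106 in WT testes, and Prdx6 with 1993 ± 28.7 in Ccdc117ko testes and 2034 ± 54.6 in WT testes. The order was the same in all 6 libraries, and within either genotype the ranges of neighbours in it did not overlap. It depends on the length used: with all exons merged, Nme8 stood above Prdx4 in 5 of 6 libraries.

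**Figure D1:**
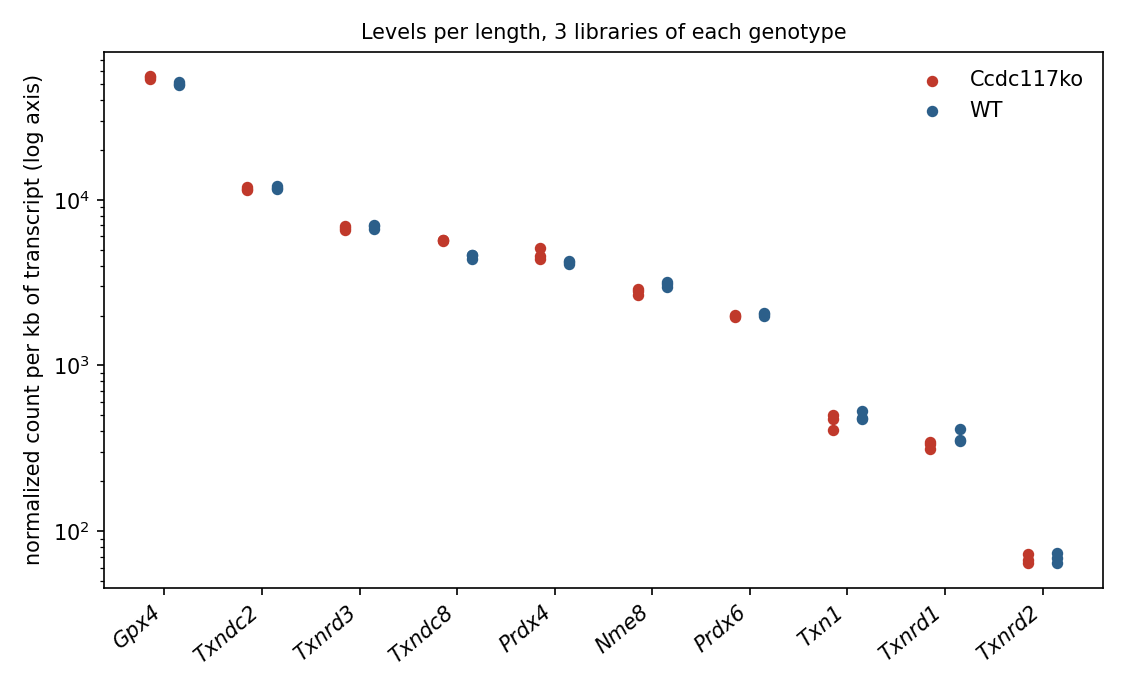
Normalized counts per kilobase of the longest transcript on a log axis for the 10 genes, with a point for each of 3 Ccdc117ko and 3 WT libraries. Gpx4 sits near 54897 in Ccdc117ko and 50430 in WT testes, and Txnrd2 near 67.9 in Ccdc117ko and 68.6 in WT testes.

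All 10 genes passed the filter on low counts, and 1 of them, Txndc8, passed the test between genotypes (limma-trend with Benjamini-Hochberg adjustment over 32783 genes, called where the adjusted p was under 0.05). It was higher in Ccdc117ko testes, no gene was lower, and 9 were not called. Across all tested genes 6.80% were called, 3.70% higher and 3.10% lower, so 1 of 10 is close to the background. Among the 12883 tested genes at least as abundant as Txnrd2, the lowest member, 15.1% were called. The groups did not overlap for 5 of the 10 genes, against 27.0% of all tested genes: 3 genes had all Ccdc117ko libraries higher, against 13.7%, and 2 had all lower, against 13.3%. In the 9 lists of other thiol and peroxide genes described below, the groups did not overlap for 40.8% of 98 tested rows. The share without overlap among those 12883 abundant genes was not counted. The median log2 difference was -0.03 over the 10 genes and 0.00 over all tested genes, and the median of the absolute differences was 0.11 over the 10 genes, 0.13 over those 12883 genes and 0.21 over all tested genes.

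**Figure D2:**
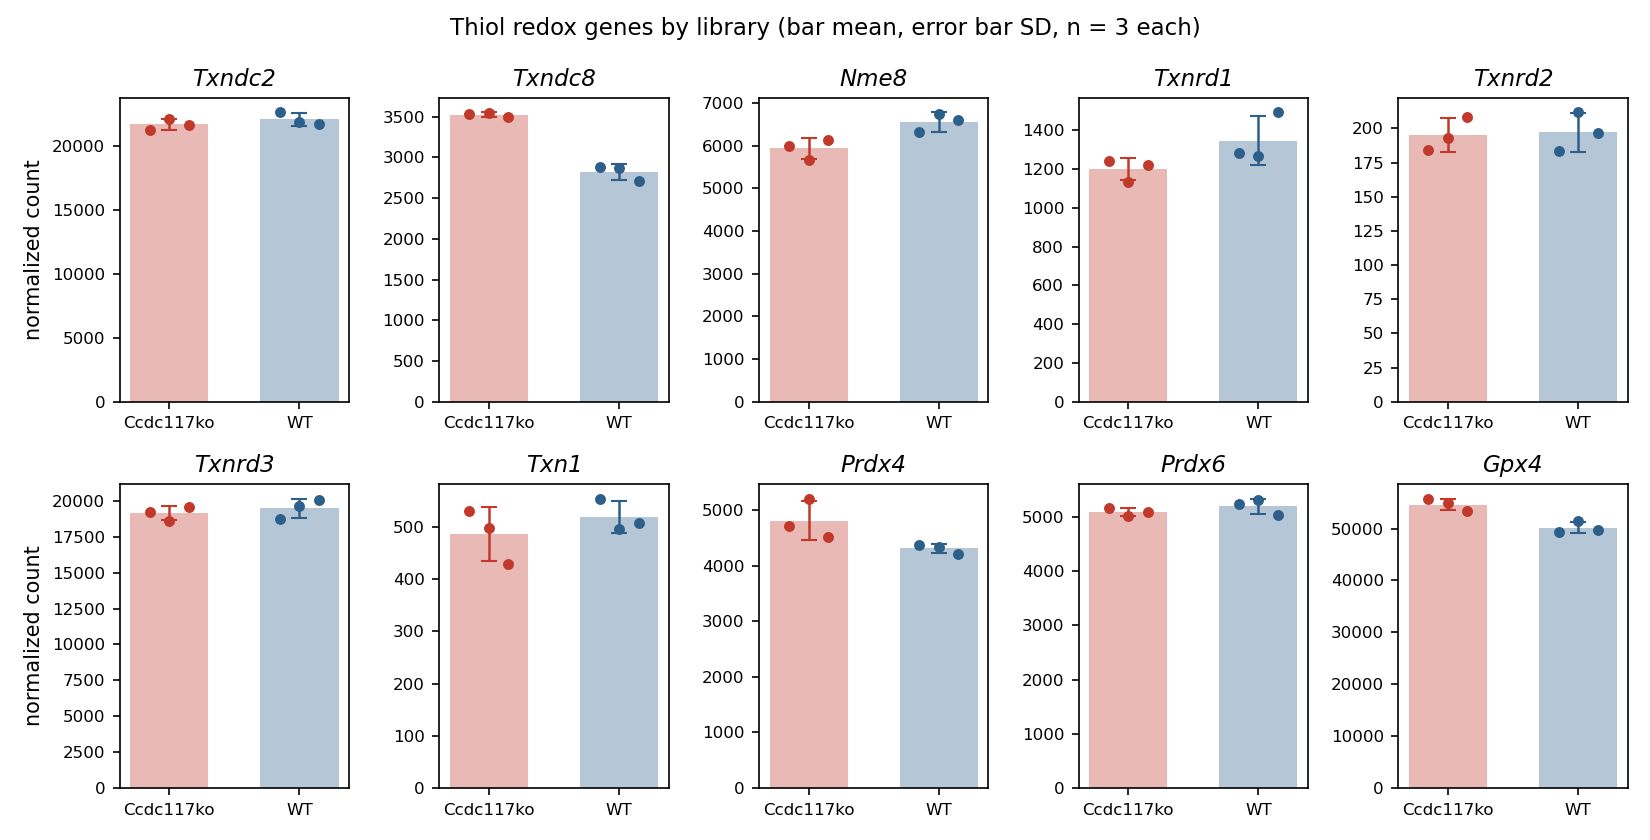
Normalized counts of each of the 10 genes, 1 panel a gene, with a point for each library and a bar at the group mean. The 3 Ccdc117ko points of Txndc8 lie between 3494 and 3551, all above the WT points, which lie between 2711 and 2881.

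Txndc8, a thioredoxin of spermatids found in the Golgi and developing acrosome, had 3528, 3551 and 3494 normalized counts in Ccdc117ko testes, against 2881, 2870 and 2711 in WT testes. The 3 Ccdc117ko libraries differed by little and stood clear of all 3 WT libraries. The means were 3524 ± 28.5 in Ccdc117ko testes and 2821 ± 95.2 in WT testes (SD, n = 3 each), 24.9% higher. The log2 difference was 0.32 (SE 0.04, 95% interval 0.23 to 0.41, limma adjusted p = 0.0124), a fold between 1.17 and 1.33.

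The Txndc8 call was lost without Ccdc117ko replicate 2 (limma adjusted p = 0.0792) or 3 (0.0551) and without WT replicate 2 (0.0506) or 3 (0.0578), while the log2 difference kept between 0.29 and 0.34 over all 6 omissions. With genes averaging at least 10 normalized counts, the call was kept in all 6 omissions (limma adjusted p between 0.000798 and 0.00982). Omissions with that minimum were chosen after seeing the data, and they called 1735 to 4026 genes over the whole table. The omissions that lost the Txndc8 call left 17 to 109 genes called.

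Txndc2, a thioredoxin of the fibrous sheath in the sperm tail, had 21274, 22170 and 21710 normalized counts in Ccdc117ko testes, against 22653, 21922 and 21747 in WT testes. The groups overlapped. The log2 difference was -0.03 (SE 0.03, limma adjusted p = 0.694), with an interval of -0.10 to 0.05 that excludes a change as large as that of Txndc8.

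Nme8, which joins a thioredoxin domain to nucleoside diphosphate kinase domains and is a ciliary dyskinesia gene in human, had 5997, 5670 and 6139 normalized counts in Ccdc117ko testes, against 6309, 6751 and 6598 in WT testes. All 3 Ccdc117ko libraries lay below all 3 WT libraries. The means were 5936 ± 241 in Ccdc117ko testes and 6553 ± 224 in WT testes (SD, n = 3 each), but the difference of -0.14 on the log2 scale was not called (SE 0.04, interval -0.24 to -0.04, limma adjusted p = 0.0959).

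Among the 3 spermatid thioredoxins only Txndc8 was called, and its ratio to both others differed between genotypes in all libraries. Relative to Nme8 in the same library, Txndc8 averaged -0.75 on the log2 scale in Ccdc117ko testes and -1.22 in WT testes. Relative to Txndc2 it averaged -2.62 in Ccdc117ko testes and -2.97 in WT testes. Of the summed per-kilobase level of Txndc2, Txndc8, Nme8 and Txn1, Txndc8 made up 27.6% ± 0.234 in Ccdc117ko testes and 22.7% ± 0.428 in WT testes, and Txndc2 56.6% ± 0.709 in Ccdc117ko testes and 59.4% ± 0.601 in WT testes (SD, n = 3 each). Nme8 made up 13.6% ± 0.631 in Ccdc117ko testes and 15.4% ± 0.698 in WT testes. These ratios and shares are a description, with no test. They repeat the differences of the single genes given above, and a larger share of Txndc8 lowers the shares of the others.

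Txn1, the cytosolic thioredoxin of most cells, is the neighbour of Txndc8 on chromosome 4. The genes lie on the same strand 27.6 kb apart, and 0 genes of the table lie between them. Txn1 had 531, 499 and 429 normalized counts in Ccdc117ko testes, against 555, 496 and 507 in WT testes. These ranges overlapped, and the log2 difference was -0.10 (SE 0.09, interval -0.31 to 0.11, limma adjusted p = 0.585). That value rests on single libraries: it was -0.01 without Ccdc117ko replicate 3, -0.16 without Ccdc117ko replicate 1 and -0.05 without WT replicate 1. Txndc8 stood above Txn1 by 2.86 on the log2 scale in Ccdc117ko testes and 2.44 in WT testes, and all 3 Ccdc117ko libraries had the larger gap.

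Txnrd3, a testis-rich reductase that carries an added glutaredoxin domain and so can also reduce glutathione, had 19252, 18590 and 19575 normalized counts in Ccdc117ko testes, against 18752, 19662 and 20045 in WT testes. The groups overlapped, and the log2 difference was -0.03 (SE 0.04, interval -0.11 to 0.06, limma adjusted p = 0.743). Txnrd3 made up 94.4% ± 0.0854 of the per-kilobase level of the 3 reductases in Ccdc117ko testes and 94.0% ± 0.311 in WT testes (SD, n = 3 each).

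Txnrd1, the cytosolic reductase, had 1241, 1135 and 1222 normalized counts in Ccdc117ko testes, against 1282, 1267 and 1492 in WT testes. All Ccdc117ko values lay below all WT values, and 1 WT library stood above the other WT libraries. The difference was not called (log2 -0.16, SE 0.07, interval -0.33 to 0.01, limma adjusted p = 0.238), and it was -0.09 without WT replicate 3. Eid3, a testis gene on the same strand, lies inside the bounds of Txnrd1 without sharing an exon. It had 16019 ± 196 normalized counts in Ccdc117ko testes and 14982 ± 1051 in WT testes (SD, n = 3 each, log2 difference 0.10, limma adjusted p = 0.297).

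Txnrd2, the mitochondrial reductase and the least abundant member, had 184, 193 and 209 normalized counts in Ccdc117ko testes, against 183, 212 and 197 in WT testes. The ranges nearly coincided, and the log2 difference was -0.01 (limma adjusted p = 0.967), with the widest interval of the 10 genes, -0.24 to 0.21.

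**Figure D3:**
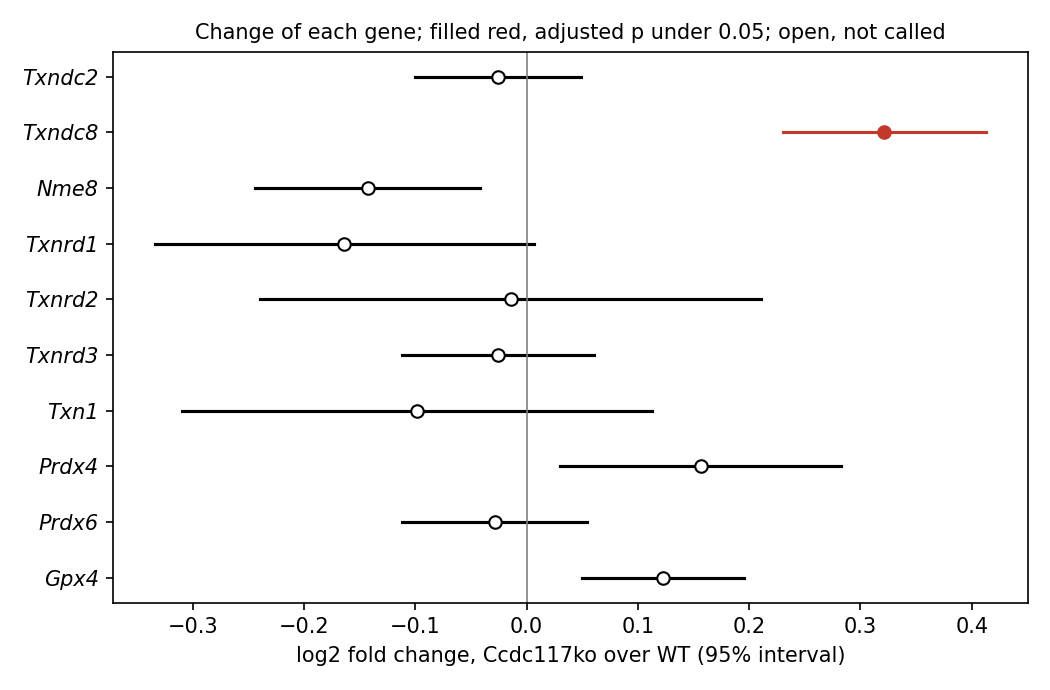
Log2 difference of Ccdc117ko over WT testes for each of the 10 genes, with the 95% interval from limma and a line at 0. Txndc8 stands at 0.32 with an interval of 0.23 to 0.41, Gpx4 at 0.12, and Nme8 at -0.14.

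Prdx4, the peroxiredoxin of the endoplasmic reticulum, had 4712, 5207 and 4520 normalized counts in Ccdc117ko testes, against 4375, 4342 and 4218 in WT testes. The WT libraries lay close together and below all 3 Ccdc117ko libraries, which were more spread. The means were 4813 ± 354 in Ccdc117ko testes and 4312 ± 82.8 in WT testes (SD, n = 3 each), and the log2 difference of 0.16 was not called (SE 0.05, interval 0.03 to 0.28, limma adjusted p = 0.136). Without Ccdc117ko replicate 2, the highest library, it was 0.10.

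Prdx6, a peroxiredoxin with 1 catalytic cysteine that also acts on phospholipids, had 5173, 5026 and 5097 normalized counts in Ccdc117ko testes, against 5241, 5318 and 5047 in WT testes. The groups overlapped, and the log2 difference was -0.03 (SE 0.04, interval -0.11 to 0.05, limma adjusted p = 0.694).

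Gpx4, which reduces phospholipid hydroperoxides and hardens into the midpiece capsule, had 55625, 54845 and 53397 normalized counts in Ccdc117ko testes, against 49333, 51442 and 49760 in WT testes. All 3 Ccdc117ko libraries lay above all 3 WT libraries. The means were 54623 ± 1131 in Ccdc117ko testes and 50178 ± 1115 in WT testes (SD, n = 3 each), 8.86% higher. The log2 difference of 0.12 (SE 0.03, interval 0.05 to 0.20) missed the threshold with limma-trend, at an adjusted p of 0.0594. It passed when only genes averaging at least 10 normalized counts were tested (limma adjusted p = 0.0307, 16.6% of 22878 genes called), and with limma-voom on the recovered reads (adjusted p = 0.0243, 7.40% of genes called). Gpx4 passed in 3 of 11 other settings in all, and not with a replicate block (limma adjusted p = 0.105). Without that minimum it passed in 0 of 6 omissions of a library (limma adjusted p between 0.0824 and 0.189).

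The Gpx4 count is uncertain in 1 respect: 61.7% of the 50-base words of its longest transcript are also in the pseudogene Gpx4-ps2. That pseudogene had 5796, 5885 and 5900 normalized counts in Ccdc117ko testes, against 5235, 5406 and 5093 in WT testes, and was higher in Ccdc117ko testes (log2 difference 0.16, limma adjusted p = 0.0400). With the Gpx4 and Gpx4-ps2 reads summed, the log2 difference was 0.13 (limma adjusted p = 0.0510). Gpx4 stood above Gpx4-ps2 by 3.22 on the log2 scale in Ccdc117ko testes and 3.26 in WT testes.

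In the authors' deposited table, whose test is not given in the sources used here, 4 of the 10 genes had an FDR under 0.05, against 11.5% of the 36652 genes. That share includes genes with few or no reads, whereas all 10 genes passed the filter on low counts. The share among genes of like abundance was not counted for this FDR. In that authors' deposited table the FDR was 3.75e-10 for Txndc8, 0.00246 for Gpx4, 0.0124 for Nme8 and 0.0205 for Prdx4. These are the same genes whose groups did not overlap above, apart from Txnrd1, which had an FDR of 0.126 in the authors' deposited table.

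Transcript length moved with the genotype difference over the 14256 protein-coding genes that averaged at least 50 normalized counts. The median log2 difference was 0.10 over the 2852 shortest of them, up to 1818 nucleotides, and -0.14 over the 2849 longest, from 5186 nucleotides. The longest transcripts of Txndc8, at 620 nucleotides, of Gpx4, at 995, of Prdx4, at 1025, and of Txn1, at 1051, are in that shortest class. With the trend in length and GC content removed, Txndc8 remained higher at a log2 difference of 0.22 (limma adjusted p = 0.0192), and Gpx4 had 0.07 (limma adjusted p = 0.172). Prdx4 then had 0.09 (limma adjusted p = 0.385), Txn1 -0.16 (limma adjusted p = 0.400) and Txnrd1 -0.09 (limma adjusted p = 0.565), each more than 1.5 times away from its uncorrected value, and Txnrd2, Txnrd3 and Prdx6 turned to 0.05, 0.03 and 0.01, none called.

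Spermatid markers also had unequal levels between genotypes, though these bulk libraries do not show which cells make the transcripts described here. Of 14 round spermatid markers, 9 were higher, 0 lower and 5 not called, with a median log2 difference of 0.36. Sun5, which anchors the sperm head to the tail, was at 0.48, the acrosomal membrane gene Spaca4 at 0.46 and the calcium channel subunit Catsper4 at 0.45 (limma adjusted p = 0.0174, 0.0172 and 0.0148). Their summed level was 112881 to 116681 normalized counts in Ccdc117ko testes, against 98500 to 102374 in WT testes, so the groups did not overlap. Of 15 elongating spermatid markers, 3 were higher, 0 lower and 12 not called, with a median of 0.10. Those called were Tsga8, at 0.34, the spermatid linker histone Hils1, at 0.28, and Prm3, at 0.24 (limma adjusted p = 0.0250, 0.0128 and 0.0193). With the length and GC trend removed the round spermatid median was 0.33, with 10 higher, and the elongating spermatid median 0.04, with 2 higher and 1 lower, and Prm3 was not called (limma adjusted p = 0.0599). In these bulk samples fewer or more cells of a type and less or more RNA per cell cannot be told apart.

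Set against the mean log2 level of the 14 round spermatid markers in the same library, Txndc8 averaged -1.02 in Ccdc117ko testes and -1.09 in WT testes. Its difference between genotypes was then 0.06, and the groups nearly touched. Txndc2 averaged 1.60 in Ccdc117ko testes and 1.88 in WT testes on that scale, a difference of -0.29, and the groups did not overlap. Nme8 differed by -0.40 and Txnrd1 by -0.42, and the groups did not overlap in either. Txnrd2, Txnrd3, Txn1 and Prdx6 differed by -0.27, -0.29, -0.36 and -0.29, also without overlap. The marker mean was itself higher in Ccdc117ko testes, so the subtraction lowers the difference of every gene by the same amount. A gene with little difference of its own can thus separate on this scale: before the subtraction Txnrd2 was at -0.01 with overlapping groups. The share of all tested genes that separate on this scale was not counted. Gpx4 differed by -0.14 and Prdx4 by -0.10, and in both the groups overlapped.

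Set against the 15 elongating spermatid markers, Txndc8 averaged -3.80 in Ccdc117ko testes and -4.03 in WT testes, a difference of 0.23 without overlap. Gpx4 averaged 0.15 in Ccdc117ko testes and 0.12 in WT testes, with overlapping groups. Txndc2 and Prdx6 differed by -0.12 each without overlap, Nme8 by -0.23 and Txnrd1 by -0.25 without overlap, and Txnrd2, Txnrd3, Txn1 and Prdx4 overlapped. The mean of these markers was also higher in Ccdc117ko testes, so here too the subtraction lowers every gene by the same amount. The part that the amount of spermatid RNA has in the differences of single genes was not tested.

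**Figure D4:**
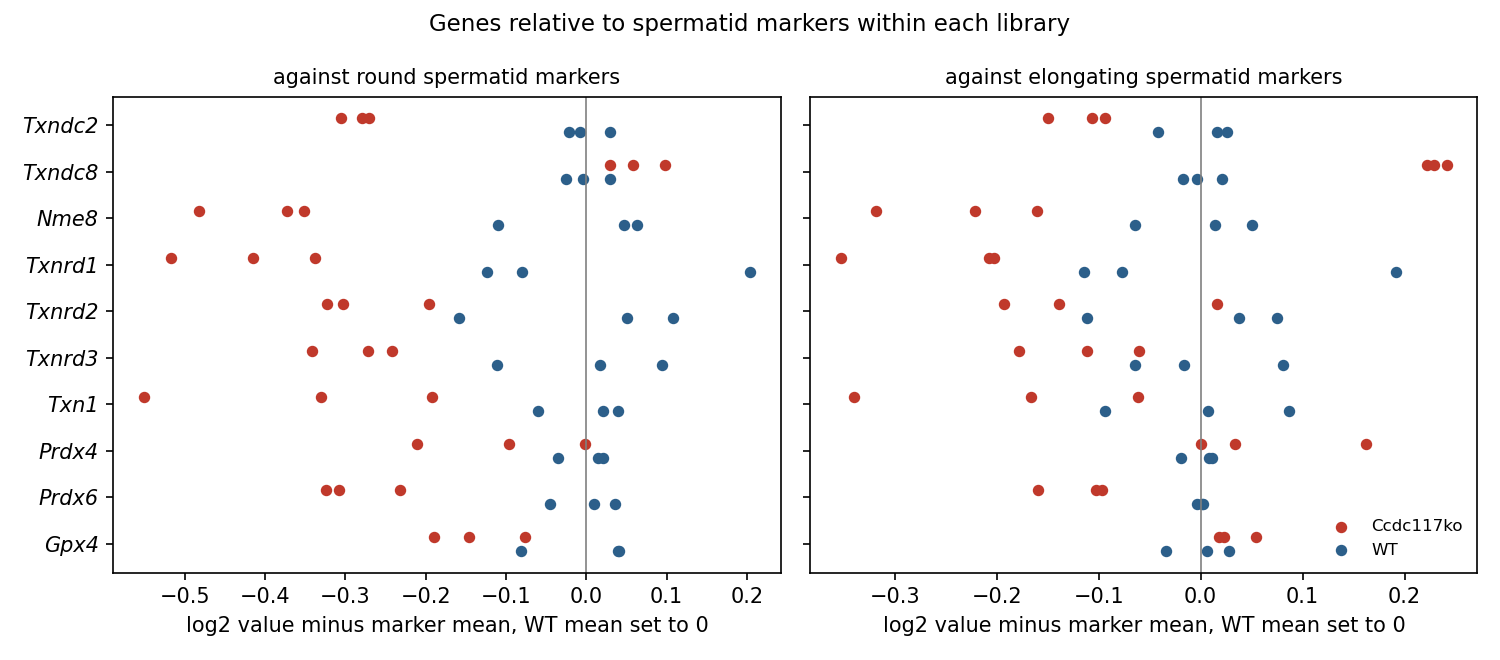
Log2 level of each of the 10 genes minus the mean log2 level of the round spermatid markers (14 genes) and of the elongating spermatid markers (15 genes) in the same library, for 3 Ccdc117ko and 3 WT libraries. Against the round spermatid markers the difference is 0.06 for Txndc8 and below 0 for the other 9 genes. Both marker means are higher in Ccdc117ko testes, which lowers every gene of a panel by the same amount.

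Over 9 lists of other thiol and peroxide genes, 98 gene rows were tested, of which 6 were higher, 6 were lower and 86 were not called, with a median log2 difference of -0.01. The share called, 12.2%, stands above the 6.80% of all tested genes and below the 15.1% of tested genes at least as abundant as Txnrd2. With the length and GC trend removed, 9 were higher and 3 lower. Of 23 other thioredoxin-fold genes, 2 were higher, 1 lower and 20 not called: the mitochondrial glutaredoxin Glrx2 at 0.21 and the thioredoxin-like Txndc9 at 0.18 were higher, and Txndc5, a thioredoxin-domain protein of the endoplasmic reticulum, was lower at -0.30 (limma adjusted p = 0.0234, 0.0429 and 0.0342).

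None of 6 other peroxiredoxin and sulfiredoxin genes was called. The most abundant, the Prdx6 relative Prdx6b, had 17650 ± 818 normalized counts in Ccdc117ko testes and 17336 ± 372 in WT testes (SD, n = 3 each, log2 difference 0.03, limma adjusted p = 0.776). Of 7 other glutathione peroxidases, 1 was higher and 6 were not called. Gpx6, a glutathione peroxidase known from olfactory tissue, had 727, 814 and 828 normalized counts in Ccdc117ko testes, against 585, 554 and 535 in WT testes (log2 difference 0.50, SE 0.07, limma adjusted p = 0.0155). Its groups were well apart.

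Among 16 other selenoproteins, 2 were higher and 14 were not called. Selenov, a selenoprotein of testis, had 11508, 11421 and 10644 normalized counts in Ccdc117ko testes, against 8890, 7972 and 7880 in WT testes (log2 difference 0.44, SE 0.06, limma adjusted p = 0.0128). The small selenoprotein Selenow had 4835 ± 57.7 in Ccdc117ko testes and 4183 ± 186 in WT testes (SD, n = 3 each, log2 difference 0.21, limma adjusted p = 0.0297). The groups did not overlap in either gene. Of 10 genes that supply selenium or read the TGA codon as selenocysteine, 2 were lower and 8 were not called. Those lower were Secisbp2l, a relative of the selenocysteine insertion factor Secisbp2, at -0.38, and Lrp8, the receptor that brings selenium into testis, at -0.24 (limma adjusted p = 0.0259 and 0.0326).

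Of 11 disulfide-forming genes of the secretory pathway, 1 was higher and 2 were lower. Pdilt, a testis-specific disulfide isomerase relative that acts as a chaperone for sperm surface proteins, had 7411 ± 608 normalized counts in Ccdc117ko testes and 6082 ± 337 in WT testes (SD, n = 3 each, log2 difference 0.28, limma adjusted p = 0.0443). Qsox1, a sulfhydryl oxidase, was lower at -0.27, and the disulfide isomerase Pdia4 was lower at -0.20 (limma adjusted p = 0.0200 and 0.0284).

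Of 11 tested rows for glutathione synthesis and reduction, 1 was lower and 10 were not called. The lower row was Nnt, the mitochondrial transhydrogenase that supplies NADPH, with 1756, 1855 and 2155 normalized counts in Ccdc117ko testes, against 2372, 2666 and 2984 in WT testes (log2 difference -0.48, limma adjusted p = 0.0340). A second Nnt row had 79.3 normalized counts in Ccdc117ko replicate 2 and 189 in WT replicate 2 and was at 0 in the other libraries. Why only those 2 libraries had reads there was not tested. None of 4 superoxide dismutase and catalase genes and none of 10 regulators and targets of Nrf2, the transcription factor that answers oxidative stress, was called. Sod1, the cytosolic dismutase, differed by 0.08 (limma adjusted p = 0.268) and the Nrf2 target Osgin1 by 0.00 (limma adjusted p = 0.997). With the length and GC trend removed, Txndc5 at -0.25 and Nnt at -0.40 kept most of their difference but passed the threshold no longer (limma adjusted p = 0.0616 and 0.0544). Secisbp2l at -0.25, Lrp8 at -0.12, Selenow at 0.14 and Gpx4-ps2 at 0.09 were not called then either (limma adjusted p = 0.108, 0.182, 0.0790 and 0.179).

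**Figure D5:**
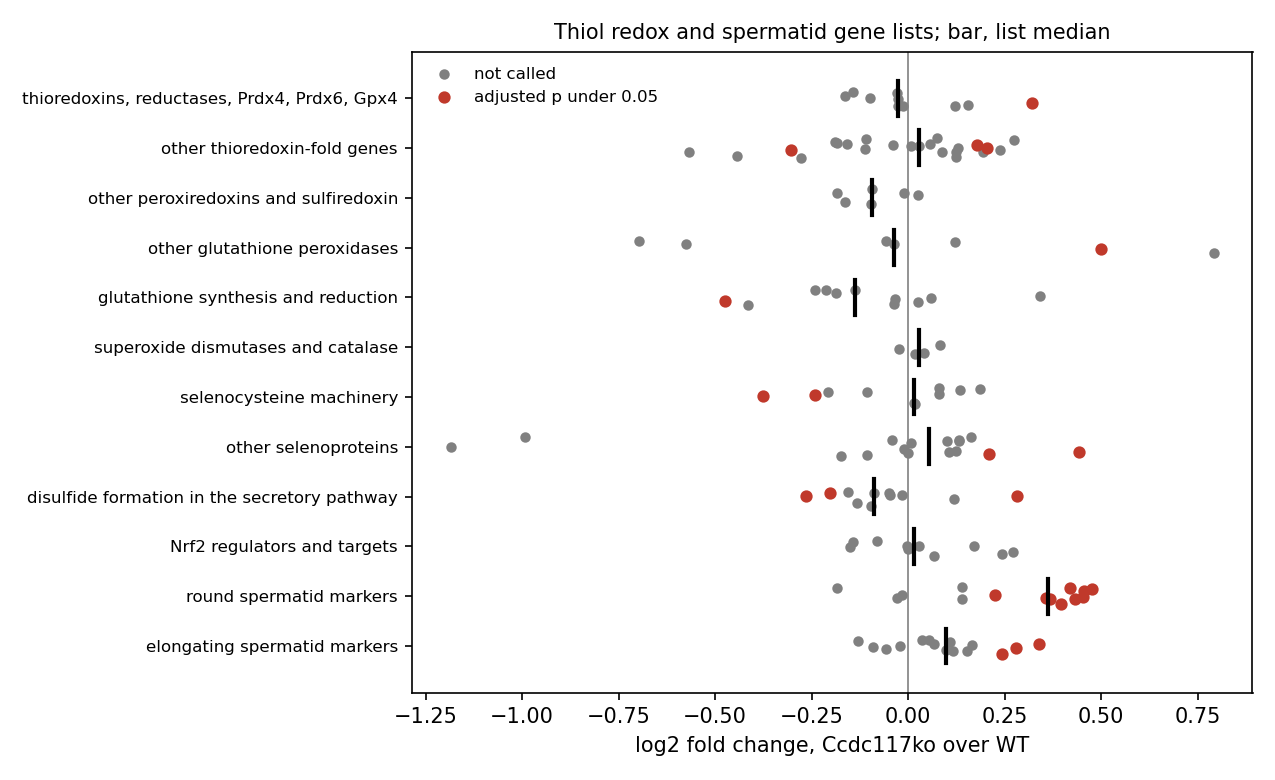
Log2 difference of Ccdc117ko over WT testes for the tested genes of each list, with a point for each gene and called genes marked. The round spermatid markers have a median of 0.36, and the 9 lists of thiol and peroxide genes have medians between -0.14 and 0.05.

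Markers of other cell types of the testis moved as well. Of 10 Sertoli markers 6 were lower (median -0.24), with Kitl, Inhbb and Dhh at -0.40, -0.38 and -0.29, and their sum was 47895 to 49835 normalized counts in Ccdc117ko testes, against 53031 to 54377 in WT testes. With the length and GC trend removed 2 Sertoli markers were lower (median -0.18), and Inhbb and Dhh were not called (limma adjusted p = 0.0768 and 0.0888). Of 9 spermatogonial markers 2 were lower, Kit at -0.52 and Etv5 at -0.44. Of 10 pachytene spermatocyte markers, the flagellar gene Spag6 at 0.37 and the phosphatase Cdc25c at 0.31 were higher, the transcription factor Mybl1 at -0.37 was lower, and 7 were not called. Of 7 Leydig markers, Star and Cyp17a1 were higher at 1.23 and 0.47 and Hsd3b1 was lower at -0.90. Of 6 macrophage markers, the Fc receptor Fcgr3 at -0.35 and the mannose receptor Mrc1 at -0.28 were lower, and with that trend removed Mrc1 was not called (limma adjusted p = 0.103). None of 5 tested epididymal markers and 4 fat cell markers was called, with Rnase10 at -0.37 (limma adjusted p = 0.185) and Lipe at -0.15 (limma adjusted p = 0.0925). These shifts were measured in the same libraries as the 10 genes, and their part in the values above was not tested.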

How the data were processed

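Poly(A) RNA-seq libraries of whole mouse testis were made with a strand-keeping kit, per the labels' protocols. STAR, DESeq2 and the mm10 build are named in the submitters' processing notes, without version or role, and neither notes nor labels describe the counting. The authors deposited log2 values with no stated unit. The numbers themselves show log2 of a normalized count plus 1: undone, 100% of values under 500 reads are whole multiples, within 0.01, of 1 step per library, so reads were recovered. The deposited p-values and FDR are the authors' own, from a test that the file header does not name.

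Genes averaging at least 0.5 normalized counts (32783 of 36652) were fitted with limma-trend on the log2 scale (limma 3.58.1 in R 4.3.3), without covariates, with Benjamini-Hochberg adjustment. A fold on this scale slightly understates low genes. The pipeline was tested on simulated data. Gene models and lengths came from GENCODE M21, which matched 36551 IDs. Counts of any 2 libraries of a group differed beyond sampling noise (chi-square per degree of freedom at least 4.68), so none was merged. The members and lists were chosen with earlier results of these data known. All 10 members are named, with Ccdc117 and genes that overlap or share sequence with a member, some of which are not reported here. From each other list up to 3 called genes with the largest change are named, or the most abundant gene where none was called. Other filters, pseudocounts, scalings, limma-voom, a length and GC correction, a replicate block and the omission of each library were tried.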

Additional observations from a re-analysis of the deposited data

How the results depend on the processing

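The log2 differences of Txndc8, Gpx4, Nme8, Txnrd1, Txn1, Prdx4 and Txndc2 kept their sign in every alternative run. In 4 uncalled genes it turned: Txnrd2 was 0.00357 with upper-quartile scaling, and with the length and GC trend removed Txnrd2 was 0.0450, Txnrd3 0.0292 and Prdx6 0.00818, the same with the replicate block added, and Ccdc117 was 0.0297. Genes called over the whole table numbered 2228, against 3798 when genes averaging under 10 normalized counts were left out. Leaving out 1 library gave 17 to 1783 calls (505, 17 and 36 without Ccdc117ko replicates 1, 2 and 3; 1783, 109 and 45 without WT replicates 1, 2 and 3), and 1735 to 4026 calls with the minimum of 10, an alternative chosen after seeing the data, as was summing Gpx4 with Gpx4-ps2. The cause of the low counts was not tested.

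Members called numbered 1, against 2 with the minimum of 10, with upper-quartile scaling and with limma-voom, the added gene being Gpx4 (log2 difference 0.12, 0.14 and 0.12, limma adjusted p = 0.0307, 0.0489 and 0.0243). Leaving out 1 library gave 0 to 1 members, and 1 to 3 with the minimum of 10. In those omissions Txndc8 ranged over 0.29 to 0.34, Gpx4 over 0.11 to 0.14, Nme8 over -0.17 to -0.11, Prdx4 over 0.10 to 0.20, Txnrd1 over -0.21 to -0.09, Txn1 over -0.16 to -0.01 and Txnrd2 over -0.0652 to 0.0378, above 0 without Ccdc117ko replicate 1 (0.0276) or WT replicate 2 (0.0378). With the minimum of 10, Gpx4 was called in 3 of 6 omissions, Nme8 without WT replicate 1 (limma adjusted p = 0.0228) and Prdx4 without Ccdc117ko replicate 3 (limma adjusted p = 0.0426).

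Same-numbered libraries did not deviate together across genes averaging at least 10 normalized counts (correlations -0.003, -0.004 and 0.006). Such a correlation would miss a pairing that touches few genes, and the second Nnt row had reads only in replicate 2 of each genotype. Whether the numbers pair the libraries is not known. With the replicate block 703 genes were called, 17 list genes against 40, and Txndc8 at 0.32 (limma adjusted p = 0.0457). With the replicate block and the length and GC correction 26 genes and 0 members were called, and Txndc8 was 0.22 (limma adjusted p = 0.0680).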
